A study of Mus musculus
Mus spretus with 18 samples.

Results

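The kidney of F1 hybrid mice was compared with 6 other tissues of the same cross, to ask which genes and which alternative exons set the kidney apart. The members are the 2 kidney libraries, chosen by their tissue label out of 18 libraries in the series, and they were set against the 12 libraries of embryonic stem cells (ESC), liver, spleen, lung, heart and cerebral cortex. All animals were females from a cross of a C57BL/6J mother (a common laboratory mouse) with a SPRET/EiJ father (inbred Mus spretus). No group carried a transgene, a deletion or a treatment. The organs were taken at 8 weeks of age from 2 animals, 1 library per animal and organ. ESC were 2 clones of the same cross grown in culture, with no age given. The liver libraries came from the same animals but were sequenced for an earlier study, and their labels read C57BL/7J and C57BL/8J in place of C57BL/6J. Kidney, cortex and heart were sequenced with longer reads than lung, spleen and ESC and were trimmed to the same length, so read length before trimming and tissue cannot be told apart where kidney is set against lung, spleen or ESC.

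The kidney filters plasma in the glomerulus, whose podocytes hold back protein, and then recovers salt, glucose, amino acids and water along the tubule. The proximal tubule does most of this work through transporters of its brush border, the thick ascending limb and the distal convoluted tubule reclaim salt, and the collecting duct sets the final water, potassium and acid content under hormonal control. These segments are epithelia, in which splicing is shaped by regulators such as Esrp1 and Esrp2, and a skipped exon (SE) there can change an adaptor, a junction protein or a kinase without a change in the level of its gene.

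Gene expression was given in TPM, a level per transcript length whose sum is the same in each library. Exon inclusion was given as reads over splice junctions that include or skip an exon. From these, PSI, the share of transcripts with the exon, was computed for each library. Over all SE events the junction reads per library ranged from 46558287 to 129496306, and the kidney libraries held 94854222 and 95702534. A total of 21925 genes and 21128 SE events, covering 19205 exons of 7782 genes, were tested. PSI of the kidney libraries had an r of 0.993 across events, and the median size of the PSI difference was 0.00759 at a median of 684 and 688 reads per event. Events are not independent replicates, and r is a description. Mitochondrial transcripts held 17.3% and 15.3% of TPM in kidney and between 2.49% and 19.4% in the other libraries.

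The second kidney library also held transcripts of the adrenal gland, the organ that lies on top of the kidney. All 8 adrenal markers were higher in it than in the first. Cyp21a1, the steroid 21-hydroxylase, was at 0.0227 TPM in kidney replicate 1 and at 694 TPM in replicate 2. Star, which brings cholesterol into mitochondria, was at 1.77 and 561 TPM, and Cyp11b1, the last enzyme of corticosterone synthesis, at 0.0102 and 423 TPM. The medullary genes Th, Dbh, Pnmt and Chga were at between 0 and 0.104 TPM in replicate 1 and between 11.6 and 76.5 TPM in replicate 2. The summed level of the adrenal cortex list was 1.90 and 2128.5 TPM, against 0.719 to 19.2 TPM in the other 12 libraries, and that of the medulla list was 0.249 and 115 TPM, against 0.421 to 265 TPM. The junction tables showed the same library: adrenal markers had 6 junction reads in the kidney library listed first and 138020 in the one listed second. The numbers of genes and exons called are given below with and without it, and among the gene lists only the podocyte, leukocyte and adrenal counts changed without it. Without kidney replicate 2, no marker of the adrenal cortex list was called higher, and the log2 difference of Cyp21a1 moved to -0.21 and that of Star to -0.30. Of the 2790 genes called higher in kidney, 12 were over 4 times higher in replicate 2 than in replicate 1, with 1 TPM added, and 4 the other way round. Among the 690 genes set apart with a higher level, 3 were over 4 times and 7 over 2 times higher in replicate 2. The part of adrenal transcripts in any single result was not tested beyond these values.

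**Figure D1:**
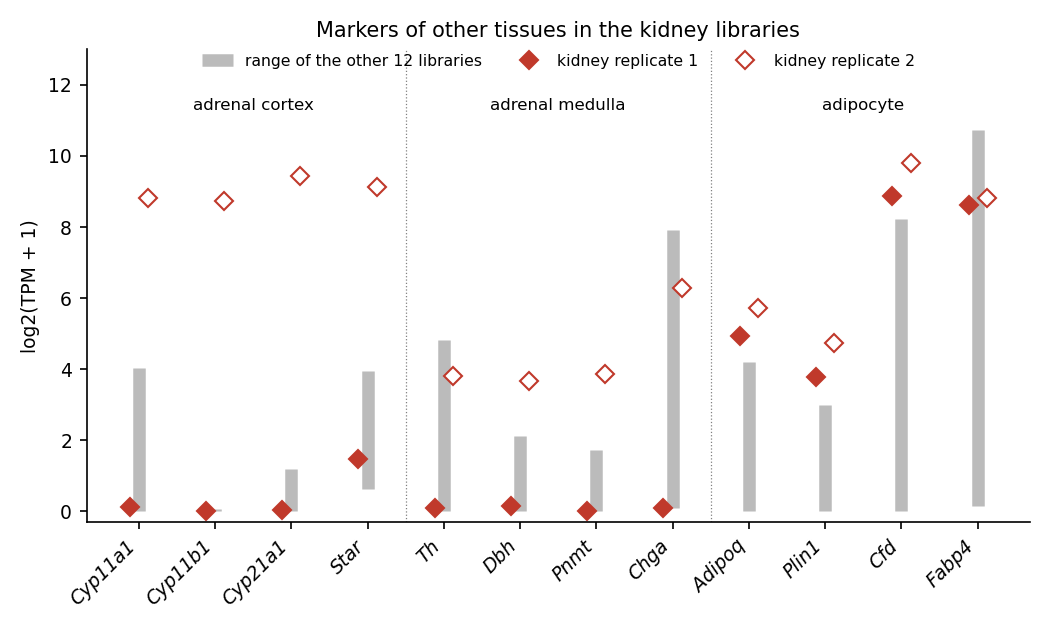
Levels of adrenal cortex, adrenal medulla and adipocyte markers as log2(TPM + 1) for each kidney library (filled diamonds, replicate 1; open diamonds, replicate 2), with grey bars for the range of the other 12 libraries. All 8 adrenal markers are near 0 in replicate 1 or, for Star, at 1.77 TPM, and stand between 11.6 and 694 TPM in replicate 2, while adipocyte markers are present in both.

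Fat markers were present in both kidney libraries. The adipocyte list summed to 909 and 1422 TPM in kidney against 0.197 to 2009 TPM elsewhere. All 4 of its genes were called higher in kidney, and 3 of them were among the 690 genes set apart. Cfd, the fat-derived complement factor D, stood at 470 and 894 TPM against at most 297 TPM in any other library. Adipoq, the hormone adiponectin, was at 29.6 and 51.5 TPM against at most 17.5 TPM. The erythroid list summed to 825 and 982 TPM in kidney against 0.00893 to 7529 TPM elsewhere, and the leukocyte list to 25.9 and 32.2 TPM against 20.2 to 4367 TPM. Of 7 leukocyte genes 6 were lower in kidney (5 without kidney replicate 2), and of 5 erythroid genes none was called in either direction by limma, with 2 under 0.05 both before and after adjustment but under the limit on size. The hepatocyte list summed to 97.4 and 139.6 TPM against 124700 TPM in the highest liver library, and Alb (serum albumin) and Ttr (transthyretin) were called higher than the mean of the others. Neuronal genes were close to 0, with a sum of 0.465 and 1.35 TPM, and all 4 were lower than the mean. The single tested pancreas gene, Cela1, was higher (102 and 97.7 TPM), while Prss2 was listed at 0 in both kidney libraries and Cpa1 did not exceed 0.0209 TPM. Among stromal lists, 1 of 5 endothelial genes (Emcn), 0 of 4 fibroblast genes (3 at an unadjusted p of limma under 0.05) and 1 of 3 smooth muscle genes (Myh11) were called higher. Of all genes tested, 12.7% were called higher, 11.7% lower and 3.15% set apart higher. In whole tissue, fewer cells of a type and less RNA per cell cannot be told apart.

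Against the mean of the other 6 tissues, 2790 genes were higher in kidney (12.7% of genes tested) and 2555 were lower (11.7%). A gene was called where the adjusted p-value of limma was under 0.05 and the log2 difference was at least 1, on the log2(TPM + 1) scale, which understates the change of genes with low levels. Genes were termed set apart where kidney passed these limits against each of the 6 other tissues in the same direction. There were 690 such genes with a higher level (3.15%) and 5 with a lower level (0.0228%). Without kidney replicate 2 the numbers were 696 and 8, and 665 of the 690 were shared. With TPM rescaled by median ratios, 624 were set apart higher, of which 566 were shared. The libraries of the groups did not overlap, with both kidney libraries above all 12 others, for 1467 genes (6.69%), and both lay below all others for 127 genes (0.579%). The 690 genes made up 20.5% and 21.4% of all TPM in the kidney libraries and between 0.476% and 1.11% in the others. They were chosen by these same levels, so this gap follows in part from the rule. The same holds for the lack of overlap in single genes set apart. Their median level in kidney was 51.3 TPM, and 245 of them reached 100 TPM.

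The highest of these transcripts was Kap, an androgen-regulated protein of the proximal tubule, which alone took 4.61% and 5.12% of TPM. It was at 46099 and 51208 TPM in kidney and between 0 and 0.423 TPM in the other libraries, with a median of 0, a log2 difference from their mean of 15.51 ± 0.11 (SE) and an adjusted p of 2.58e-13. Umod encodes uromodulin, the main protein of normal urine, which is made in the thick ascending limb. Its level was 6113 and 5972 TPM, while no other library passed 0.0775 TPM and their median was 0.0159 TPM. The difference was 12.53 ± 0.06 on the log2 scale, at an adjusted p of 7.68e-14. Both genes separated the kidney from every other library without overlap.

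Transporters and enzymes of the proximal tubule were among the 20 genes with the largest distance to the nearest tissue. Slc34a1, the sodium phosphate cotransporter, was at 2864 and 2922 TPM against 0 to 0.139 TPM (median 0.0175). Slc22a12, which exchanges urate, was at 1138.5 and 1491.5 TPM against 0 to 0.861 TPM (median 0.126). For Slc6a18, a transporter of small neutral amino acids, the values were 783 and 752 TPM against at most 0.0198 TPM, and for Slc7a12, also an amino acid transporter, 603 and 616 TPM against at most 0.0829 TPM. Tmem27 (collectrin), a partner that amino acid transporters need at the membrane, was at 1885 and 1803 TPM, with 0.0117 to 1.96 TPM elsewhere. Mep1a, a subunit of the brush border protease meprin, was at 995 and 942 TPM, with at most 0.0870 TPM elsewhere. Miox, which opens the ring of myo-inositol, was at 3119 and 3274 TPM and was also present in liver, whose mean was 9.86 TPM. In each of these 7 genes the lower kidney library exceeded the highest other library by more than any distance within either group.

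Genes of the distal nephron were as sharply separated. Slc12a1, the cotransporter of the thick ascending limb that loop diuretics block, was at 957 and 734 TPM with 0 to 0.789 TPM elsewhere. Slc12a3, the thiazide-sensitive cotransporter of the distal convoluted tubule, was at 775 and 674 TPM with 0.0104 to 0.768 TPM elsewhere. The water channel of the collecting duct, Aqp2, was at 513 and 421 TPM with 0 to 0.493 TPM elsewhere, a log2 difference of 8.73 ± 0.07 and an adjusted p of 3.96e-13. Klk1, tissue kallikrein, was at 3586 and 3734 TPM, with 13.6 TPM in the highest other library, a spleen library. The kallikreins are a family of close copies, and reads of the paralogs may be shared among them.

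The 7 remaining genes of the 20 with the largest distance to the nearest tissue were Spink3, a protease inhibitor (1691 and 1734.5 TPM), Wfdc15b (1419 and 1191 TPM), Serpina1f (434 and 412 TPM), Dnase1, a secreted nuclease (558 and 346 TPM), Tmem174 (423 and 357 TPM), Cyp2j11, a cytochrome P450 with close paralogs (338 and 287 TPM), and AC132878.3 (808 and 713 TPM). None of these passed 0.506 TPM in a library outside kidney. Serpina1f was listed at 0 in all 12 other libraries, as were 11 of the 690 genes in all. Dnase1 had the largest ratio between the kidney libraries of these 7 genes, and still all of its other libraries were at or below 0.167 TPM.

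**Figure D2:**
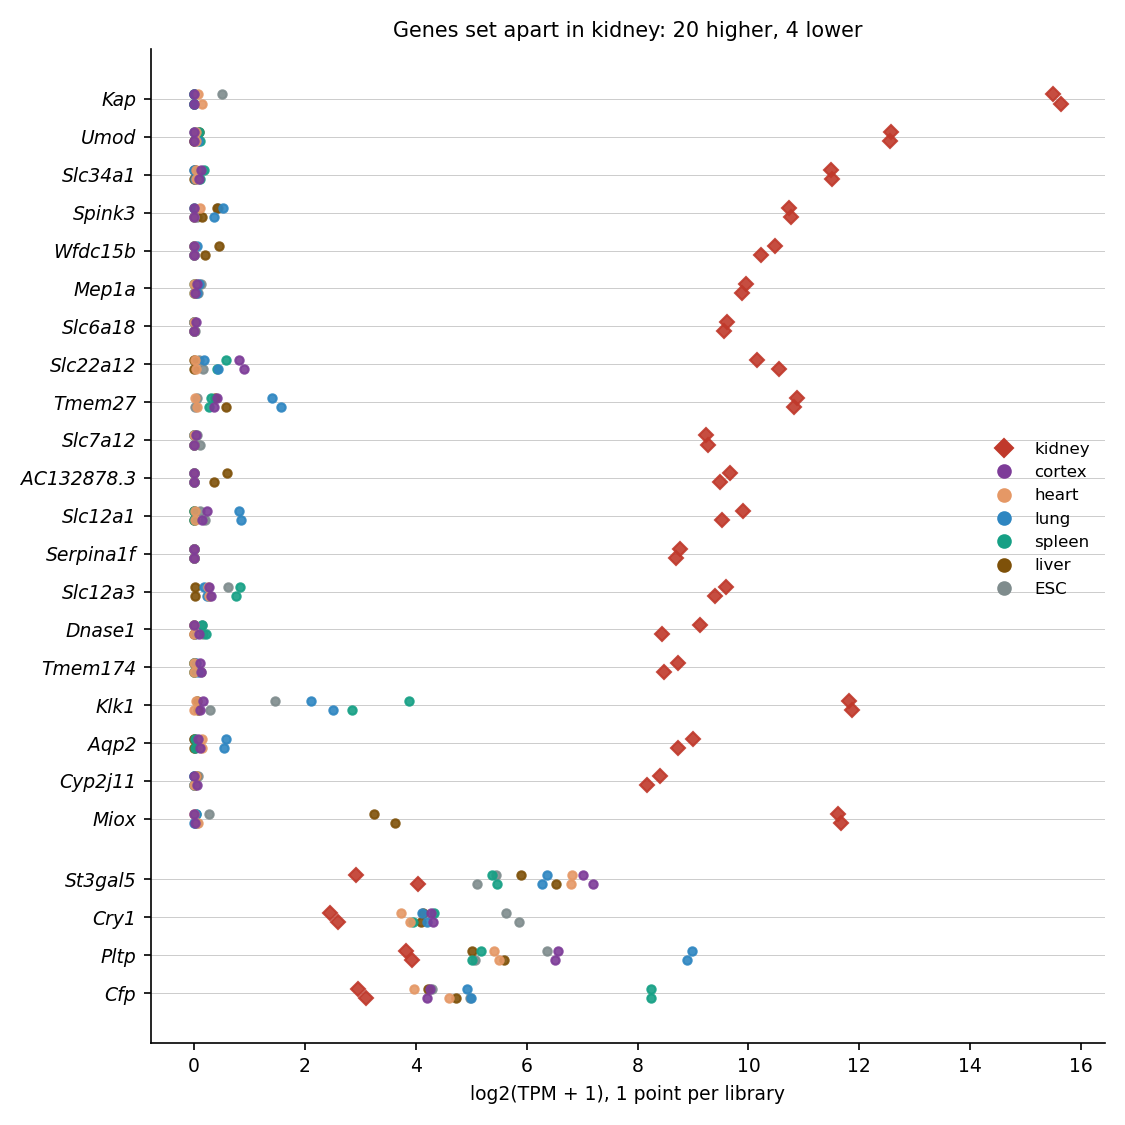
Levels as log2(TPM + 1) of the 20 genes set apart with a higher level and the 4 with a lower level in kidney, 1 point per library, kidney as red diamonds and the other tissues as coloured circles, with replicate 1 drawn above replicate 2. Kidney libraries lie to the right of all others in the upper block and to the left of all others in the lower block.

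Marker genes of the nephron segments described the same pattern in groups. Of all genes tested, 12.7% were higher and 3.15% set apart higher. These shares belong beside the counts of this and the following lists. All 18 genes of the proximal tubule list were higher than the mean of the other tissues and all 18 were set apart, with a median log2 difference of 7.83, where the median of all genes tested was -0.20. The summed level of the list was 60433 and 66003 TPM, against 8.14 to 888 TPM elsewhere. Lrp2 (megalin), the receptor that takes up filtered protein, was at 490 and 523 TPM, and its partner Cubn (cubilin) at 158 and 161 TPM. Slc5a2, which recovers glucose, was at 467 and 459 TPM against at most 1.12 TPM. The smallest difference of the list was that of Slc4a4, the bicarbonate exit of the tubule, at 234 and 215 TPM against 84.5 TPM in cortex and a log2 difference from the mean of 4.88 ± 0.08. Slc27a2, a fatty acid transporter and acyl-CoA synthetase, was at 1689 and 1329.7 TPM in kidney and had a mean of 691 TPM in liver. Where TPM were rescaled by median ratios, 16 of the 18 remained set apart.

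All 10 genes of the thick ascending limb list were set apart, with a median log2 difference of 6.76. Besides Umod and Slc12a1, the list held Egf, the precursor of epidermal growth factor, at 1590.2 and 1430.0 TPM against 0.681 to 5.68 TPM. The potassium channel Kcnj1 was at 328 and 296 TPM against at most 1.55 TPM, and Cldn16, a tight junction protein through which magnesium passes, at 23.8 and 18.9 TPM against at most 0.0729 TPM. Cldn10, another claudin, was also expressed in cortex (31.4 TPM) and lung (29.5 TPM) and was at 204 and 207 TPM in kidney.

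Of the 9 genes of the distal convoluted and connecting tubule, 8 were higher and 5 were set apart. Kl (klotho), the coreceptor of the phosphate hormone Fgf23, was at 578 and 610 TPM against 16.5 TPM in cortex, the nearest tissue. The kinase Wnk4, which controls Slc12a3, was at 207 and 184 TPM against 12.3 TPM in heart. The calcium buffers Calb1 and Pvalb were shared with cortex. Calb1 was at 155 and 168 TPM in kidney and 99.3 TPM in cortex, and Pvalb at 66.3 and 61.2 TPM in kidney and 112 TPM in cortex. Trpm6, a magnesium channel, was higher in lung (19.7 TPM) than in kidney (13.2 and 13.6 TPM). Wnk1 was not called, with 93.2 and 82.5 TPM in kidney, 10.5 to 256 TPM elsewhere and a log2 difference of 0.56 ± 0.09.

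In the collecting duct, all 8 principal cell genes were higher than the mean and 4 were set apart. Avpr2, the vasopressin receptor, was at 42.4 and 34.7 TPM against at most 0.112 TPM. Hsd11b2, which shields the mineralocorticoid receptor from corticosterone, was at 247 and 245 TPM against at most 3.08 TPM. The sodium channel subunits Scnn1b (79.5 and 72.3 TPM) and Scnn1g (60.3 and 54.8 TPM) were below lung, with 140 and 135 TPM there, and Aqp3 was below ESC, where its mean was 896 TPM. All 10 intercalated cell genes were higher and 9 were set apart. Foxi1, the transcription factor of these acid-handling cells, was at 55.9 and 46.4 TPM against at most 0.171 TPM. The proton pump subunits Atp6v0a4 (229 and 205 TPM) and Atp6v1b1 (182 and 163 TPM) had at most 3.41 and 10.9 TPM elsewhere. The exception was Slc4a1, the anion exchanger also carried by red cells, with 62.1 and 51.4 TPM in kidney and a mean of 79.4 TPM in spleen.

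Most podocyte genes were also expressed in another tissue. Of 8, 6 were higher than the mean of the other tissues and 1 was set apart, and the median log2 difference was 1.97. Without kidney replicate 2, 5 were higher and 2 set apart, and with median ratio scaling 2 were set apart. Nphs1 (nephrin), a protein of the slit diaphragm between podocytes, was at 39.9 and 36.7 TPM, with 18.9 TPM in ESC, so that its difference to ESC was 0.98 on the log2 scale. Podxl was as high in lung (228 TPM) as in kidney (227 and 220 TPM), and Synpo and Ptpro were higher in cortex (51.6 and 39.3 TPM) than in kidney. Plce1, a phospholipase C, was not called, with a log2 difference of -0.79 ± 0.15.

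**Figure D3:**
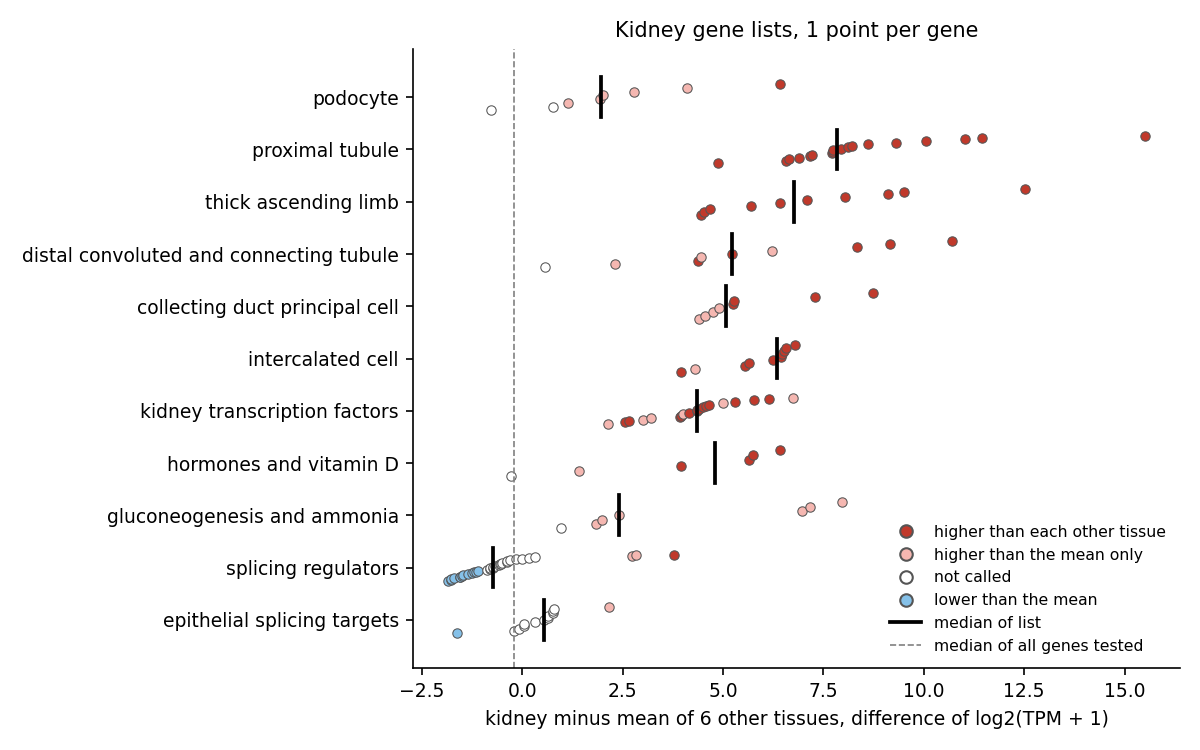
Difference of log2(TPM + 1) between kidney and the mean of the 6 other tissues for each gene of 11 lists, coloured by call, with black bars at list medians and a dashed line at the median of all genes tested. Medians of the 4 tubule segments and of intercalated cells lie between 5.07 and 7.83, that of podocyte genes at 1.97 and that of splicing regulators at -0.73.

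All 20 transcription factors of kidney development and tubule identity were higher than the mean, 14 of them against each other tissue, and the median log2 difference was 4.34. Pax8 and Pax2, needed for the first kidney primordium, were at 41.9 and 38.8 TPM and at 25.5 and 22.6 TPM, with at most 0.336 and 2.91 TPM elsewhere. Hoxd8 was at 108 and 96.2 TPM against at most 1.68 TPM. The 6 that were not set apart had another site of expression: Hnf4a in liver (206 TPM against 335 and 315 TPM in kidney), Esrrb and Tfcp2l1 in ESC (331 and 347 TPM), Pou3f3 and Esrrg in cortex (60.0 and 26.1 TPM), and Irx1 in lung (56.1 TPM).

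Hormone genes and enzymes of vitamin D followed. Of 6, 5 were higher and 4 were set apart. Pth1r, the receptor of parathyroid hormone, was at 424 and 493 TPM against at most 18.2 TPM, and Vdr, the vitamin D receptor, at 140 and 129 TPM against at most 6.91 TPM. Ren1 (renin) was at 181 and 196 TPM, with at most 18.8 TPM elsewhere. Cyp24a1, which inactivates vitamin D, differed between the kidney libraries, at 8.87 and 26.3 TPM. Its activating counterpart Cyp27b1 was at 3.22 and 3.16 TPM, inside the range of the others (0.0157 to 3.26 TPM). Epo (erythropoietin) was not called, at 3.83 and 4.12 TPM against 1.29 to 9.34 TPM. Gluconeogenesis, which kidney shares with liver, gave 6 of 7 genes higher than the mean and none set apart. Fbp1 was at 1129.8 and 1143 TPM in kidney and 883 TPM in liver, G6pc at 429 and 396 TPM and 529 TPM, and Pck1 at 476 and 732 TPM and 748 TPM.

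The 5 genes set apart with a lower level were St3gal5, Cry1, Pltp, Cfp and Lysmd2. St3gal5, which makes the ganglioside GM3, was at 6.59 and 15.3 TPM in kidney and between 33.5 and 146 TPM elsewhere (median 78.9), a log2 difference from the mean of -2.71 ± 0.24 at an adjusted p of 6.90e-06. Cry1, a repressor of the circadian clock, was at 4.47 and 5.07 TPM, against 12.4 to 57.5 TPM (median 16.8) and a log2 difference of -1.85 ± 0.10. For Pltp, which moves phospholipids between lipoproteins, the values were 13.1 and 14.2 TPM against 31.2 to 506 TPM, and for Cfp (properdin), a stabiliser of the complement convertase, 6.76 and 7.54 TPM against 14.7 to 303 TPM. Lysmd2, named after its values were seen, was at 1.01 and 2.23 TPM against 4.02 to 84.3 TPM. In all 5 genes the libraries did not overlap. With median ratio scaling St3gal5 and Cry1 were still set apart, while the log2 difference to the nearest tissue was -0.92 for Pltp, -0.84 for Cfp and -0.79 for Lysmd2. Lysmd2 was also not set apart without kidney replicate 1, at -0.80. The time of day at which tissues were taken is not given in the sources used here, and its part in the level of Cry1 was not tested.

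The regulators of splicing themselves were mostly lower in kidney or close to the mean. Of 33 entries tested, where Qk is listed under 2 identifiers, 3 were higher (9.09%, with 12.7% of all genes) and 13 lower (39.4%, with 11.7% of all genes). The 3 were Rbm47, Esrp2 and Esrp1, which act in epithelia. Rbm47 was at 66.1 and 65.1 TPM against 0.191 to 15.8 TPM, with a log2 difference of 3.77 ± 0.11 at an adjusted p of 2.98e-09. It was the only set apart entry of the list, and with median ratio scaling, in which liver is the nearest tissue, it was no longer set apart. Esrp1 was at 12.6 and 12.1 TPM, close to lung (13.9 TPM), and Esrp2 at 38.9 and 37.7 TPM, below liver (54.2 TPM). Among those with lower levels, Rbfox2, a regulator of muscle and brain exons, was at 14.1 and 14.2 TPM against 7.37 to 137 TPM, and Qk at 16.2 and 16.1 TPM against 13.7 to 140 TPM. Neuronal factors such as Rbfox1, Nova1, Celf4 and Srrm4 were below 1 TPM in both kidney libraries. Ptbp1, at 104 and 103 TPM, was not called (log2 difference 0.31 ± 0.06).

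Set against single tissues, kidney differed in the level of 9704 genes from cortex (44.3%), 6188 from heart (28.2%), 6922 from lung (31.6%), 8917 from spleen (40.7%), 9494 from liver (43.3%) and 10804 from ESC (49.3%). These comparisons share the kidney libraries. The direction of calls depended on scaling. Against liver, 88.4% of the called genes were higher in kidney as deposited and 53.6% with median ratio scaling, and the median log2 difference of all genes was 0.73 on the deposited scale and 0.00 after scaling. Against heart the share moved from 69.8% to 51.8%, and against cortex and ESC from 34.5% and 39.1% to 45.4% and 51.1%. Against the mean of the 6 tissues the scaling shifted the median by -0.05 only, and 2679 genes were higher and 2501 lower.

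Exon inclusion was compared next. An event was tested where kidney and at least 3 other tissues had 20 or more reads in both libraries, and it was called at an adjusted p-value under 0.05 (quasi-binomial model of inclusion and skipping reads) and a PSI difference of at least 0.1 from the mean of the other expressing tissues. Inclusion was higher in kidney in 277 events (1.31%) and lower in 506 (2.39%). Every event listed for kidney has at least 1 inclusion and 1 skipping read there, and the same holds for the tables of the other 6 tissues, so a tissue with a single form of an exon was not measured, in kidney or in the tissues it was compared with. Without kidney replicate 2, 176 and 361 events were called, and without replicate 1, 173 and 330, so the numbers depend on having both libraries and about alike on each.

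Short exons and exons that keep the reading frame were frequent among the called events. Exons of at most 30 bp (micro-exons) were 2.19% of the events tested, 5.42% of those with higher and 14% of those with lower inclusion. Exon lengths divisible by 3 were found in 41.8% of events tested, 63.9% of those with higher and 75.7% of those with lower inclusion. The median exon length was 110 bp over all events, and 91 bp and 81 bp in the called sets. Median kidney PSI was 0.983 over all events, 0.830 in the higher and 0.136 in the lower set. A PSI close to 1 leaves less room for a difference, and several events can share an exon or gene, so these shares are given as a description.

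Restricted to the 7913 events measured in all 7 tissues, liver was the tissue closest to kidney in splicing. Kidney differed from liver in 144 events (1.82%), from lung in 406 (5.13%), from spleen in 501 (6.33%), from ESC in 817 (10.3%), from heart in 978 (12.4%) and from cortex in 1358 (17.2%). Mean PSI correlated with r = 0.987 with liver and r = 0.881 with cortex across these events. In gene expression heart gave the fewest calls, and liver moved from 9494 calls, more than lung and spleen, to 6274 with median ratio scaling, second to heart with 6091. Over all SE events, liver libraries had the most junction reads, 113940153 and 129496306, and cortex the fewest, 46558287 and 48273341. Totals do not give the depth of single events, which was not compared between tissues. Of the events tested, 13664 could be set against liver and 17219 against cortex.

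**Figure D4:**
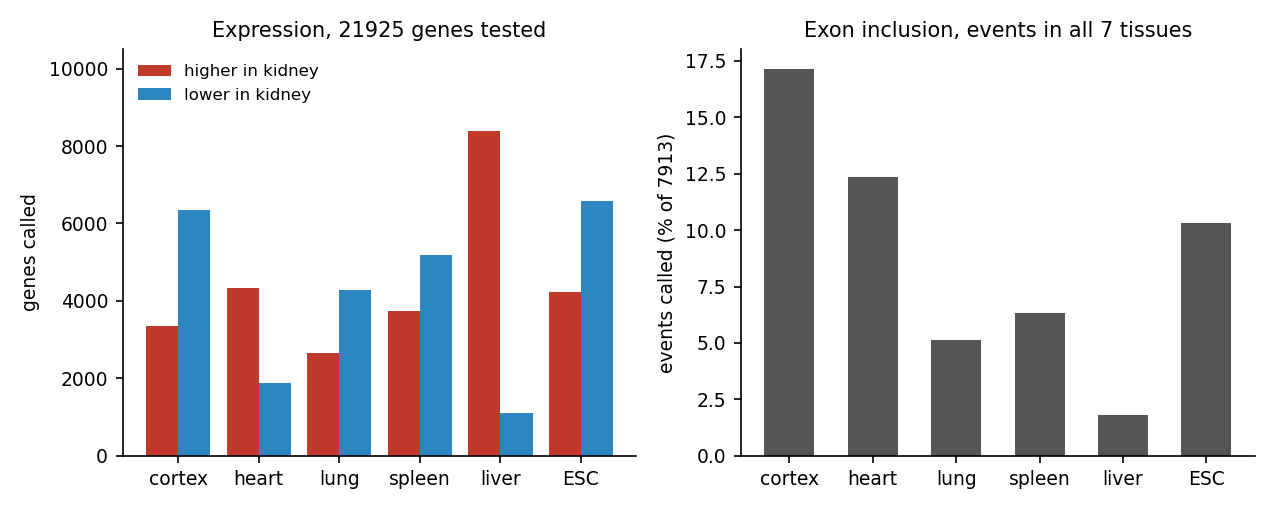
Left, number of genes called higher (red) or lower (blue) in kidney against each other tissue in TPM as deposited. Right, share of the 7913 events measured in all 7 tissues whose inclusion differed between kidney and each tissue, lowest against liver (1.82%) and highest against cortex (17.2%).

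Exons were termed set apart where kidney passed the test with a PSI difference of at least 0.1 against every other expressing tissue in the same direction. This left 12 events with higher inclusion (0.0568%) and 14 with lower inclusion (0.0663%), and in all 26 both kidney libraries lay beyond every other library measured. The events were chosen by these same values, so the lack of overlap follows in large part from the rule. Without kidney replicate 2, 11 of the 12 and 10 of the 14 kept the call, and without replicate 1 it was 12 and 10. Of the 26 events, 9 were measured in all 6 other tissues and 6 in only 3 of them. Lengths divisible by 3 were found in 9 of the 12 and 12 of the 14. In limma on log2 ratios of inclusion and skipping reads, 6 of the 12 and 8 of the 14 kept the call. Those that lost it were Dennd1b, Numb, Ctnnd1, Pkp4 (both exons), Lrrfip2, Sbf2, Lmo7, Plod2, Wnk1, H2-Q7 and the second Dab2 event. Positions below are in mm10.

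Leaving out 1 library at a time, 10 of the 26 kept the call in all 14 fits, and the other 16 lost it in at least 1. Wnk1 lost it without either kidney or either heart library, the 129-bp exon of Pkp4 without either kidney or either ESC library, the 54-bp exon of Kcnip2 without either kidney library or lung replicate 1, and H2-Q7 without either kidney library, heart replicate 2, lung replicate 1 or liver replicate 2. Dennd1b lost it without kidney replicate 2. Lrrfip2 and Sbf2 lost it without liver replicate 1, as did Nbeal2 (also without cortex or heart replicate 1), Lmo7 (also without liver replicate 2 or spleen replicate 1) and Plod2 (also without cortex replicate 2 or ESC replicate 1). Atxn7l2 lost it without heart or ESC replicate 1, the 908-bp exon of Kcnip2 without lung replicate 1 and Rab11fip3 without spleen replicate 2. The remaining losses were of Synpo and Limch1 without ESC replicate 2 and of Chst3 without cortex replicate 2. In these last cases the tissue was not measured in the reported fit. It entered once the library under 20 reads was left out, so that kidney had to pass a further tissue. Reads were 20 and 2 in ESC for Synpo, 37 and 14 in ESC for Limch1 and 22 and 17 in cortex for Chst3. The same held without liver replicate 1 for Nbeal2 (11 and 35 reads in liver) and Plod2 (5 and 20).

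The largest switch was in Spire1, which nucleates actin filaments at membranes. Its 174-bp exon (chr18:67501068-67501241, minus strand) had a PSI of 0.878 and 0.892 in kidney, at 859 and 837 reads, and between 0.0145 and 0.261 in the 10 other libraries measured (median 0.0826). The difference from their mean was 0.779, with a logit difference of 4.42 ± 0.23 (SE) and an adjusted p of 9.59e-12. The exon was thus included in most Spire1 transcripts of kidney and in a minority of those of cortex, heart, lung, spleen and ESC. Liver was not measured. A similar step was seen in Dennd1b, an exchange factor of Rab35, where a 60-bp exon (chr1:139059067-139059126) had a PSI of 0.840 and 0.936 in kidney, at 52 and 54 reads only, 0.506 and 0.495 in ESC and at most 0.176 elsewhere.

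In Numb, an adaptor that sorts Notch and integrins into endosomes, the 147-bp exon (chr12:83797197-83797343, minus strand) was at 0.748 and 0.761 in kidney. The order of the other tissues was liver (0.484 and 0.467), ESC (0.384 and 0.490), spleen (0.118 and 0.0996), lung (0.0760 and 0.0914), cortex (0.0236 and 0.0453) and heart (0.0105 and 0.0327). The difference from their mean was 0.561, at an adjusted p of 7.58e-13. Liver and ESC overlapped in their libraries, and so did heart and cortex.

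Of the 26 events, 3 lay in Ctnnd1 and Pkp4, junction proteins of the catenin family. This family is not 1 of the fixed lists, and whether it held more than its share of events was not tested. Ctnnd1 (p120 catenin), which holds cadherins at the membrane, included an 87-bp exon (chr2:84603188-84603274, minus strand) at 0.408 and 0.413 in kidney, 0.198 and 0.162 in liver and at most 0.122 elsewhere. Pkp4 (plakophilin 4), a relative of p120, had a 48-bp exon (chr2:59314356-59314403) at 0.543 and 0.542 in kidney, 0.320 and 0.315 in liver and at most 0.101 elsewhere, with 2461 and 2577 reads in kidney and an adjusted p of 7.13e-14. A second Pkp4 exon of 129 bp (chr2:59350494-59350622) was lower in kidney, at 0.569 and 0.589 against 0.675 to 0.928. Its distance to ESC was 0.103, just over the limit.

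A 24-bp micro-exon of Picalm, which assembles clathrin coats (chr7:90194273-90194296), was almost always included in kidney, at 0.952 and 0.942 with 4540 and 4701 reads. Liver was at 0.794 and 0.763, cortex at 0.709 and 0.714, lung at 0.570 and 0.563, heart at 0.313 and 0.293, spleen at 0.216 and 0.194 and ESC at 0.111 and 0.0537, so that each tissue's pair of libraries was clear of the next. Lrrfip2 had a 45-bp exon at 0.567 and 0.527, against 0.325 and 0.359 in liver and at most 0.0760 elsewhere. For Numb, Ctnnd1, Pkp4, Picalm and Lrrfip2 alike, liver was the tissue nearest to kidney.

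The other exons with higher inclusion were a 91-bp exon of Synpo, the actin-binding protein of podocyte foot processes (0.587 and 0.628, with 0.355 and 0.339 in cortex and at most 0.228 elsewhere), a 184-bp exon of Fam107a (0.599 and 0.519 against 0.0735 to 0.239), a 179-bp exon of Atxn7l2 (0.686 and 0.691 against 0.127 to 0.416), an 81-bp exon of Nbeal2 (0.872 and 0.881 against 0.296 to 0.662) and a 96-bp exon of Sbf2, a relative of the myotubularin phosphatases (0.133 and 0.131 against at most 0.0262). Sbf2 was close to the limit, with a distance of 0.109 to cortex.

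Among exons with lower inclusion in kidney, Dab2 gave the clearest case. Dab2 is the clathrin adaptor that carries megalin and other receptors into proximal tubule cells. Its 654-bp exon (chr15:6429296-6429949) had a PSI of 0.0553 and 0.0674 in kidney at 4888 and 6203 reads, against 0.626 to 0.801 in all 12 other libraries (median 0.709). The difference from the mean was -0.656, with an adjusted p of 1.91e-16, the smallest of the 26 events. A second event joined the same exon to another flanking exon and gave 0.363 and 0.456 against 0.896 to 1. The gene itself was set apart, with a mean of 202 TPM in kidney and a log2 difference of 4.33.

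Rab11fip3, an effector of recycling endosomes, was likewise set apart in both readouts. Its 135-bp exon (chr17:26011997-26012131, minus strand) was at 0.0763 and 0.0864 in kidney, between 0.227 and 0.507 in lung, spleen, liver and ESC, and between 0.917 and 0.940 in cortex and heart. Its gene had a mean of 186 TPM and a log2 difference of 3.22. 4833439L19Rik was the third such gene, with a 179-bp exon at 0.0339 and 0.0306 against 0.276 to 0.548 and a mean level of 605 TPM.

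Exons of Lmo7 and Limch1, a pair of related LIM domain proteins of the actin cytoskeleton, both had lower inclusion in kidney. The 30-bp exon of Lmo7 (chr14:101888677-101888706) was at 0.105 and 0.114 in kidney, 0.449 and 0.438 in liver and between 0.490 and 0.967 elsewhere. The 36-bp exon of Limch1 (chr5:66993143-66993178) was at 0.507 and 0.381 in kidney, while every library of cortex, heart, lung and spleen was between 0.957 and 0.997. Other exons with lower inclusion were found in Akap9, which anchors protein kinase A (141 bp, 0.0930 and 0.0169 at 47 and 30 reads, against 0.579 to 0.978), Plod2, a lysyl hydroxylase of collagen (63 bp, 0.12 and 0.127 against 0.204 to 0.979), Kcnip2, a potassium channel subunit (908 bp, 0.207 and 0.191 against 0.542 to 0.912), and Chst3, a chondroitin sulfotransferase (153 bp, 0.0982 and 0.143 against 0.381 to 0.595). A second Kcnip2 event of 54 bp, which overlaps the first and lies outside the rule for named exons, went the same way. H2-Q7 (285 bp, 0.0447 and 0.0889 against 0.0943 to 0.365) belongs to a family of near-identical genes and is uncertain.

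Wnk1, the kinase whose kidney form is known to lack the kinase domain, had a 462-bp exon at 0.0737 and 0.0704 in kidney (chr6:119953771-119954232, minus strand), against 0.391 and 0.428 in cortex, 0.237 and 0.25 in heart and 0.368 and 0.639 in ESC. Another Wnk1 event with the same exon and other flanks was at 0.0892 and 0.0905 in kidney and 0.0330 and 0.0751 in spleen, so that spleen was not above kidney where it was measured.

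**Figure D5:**
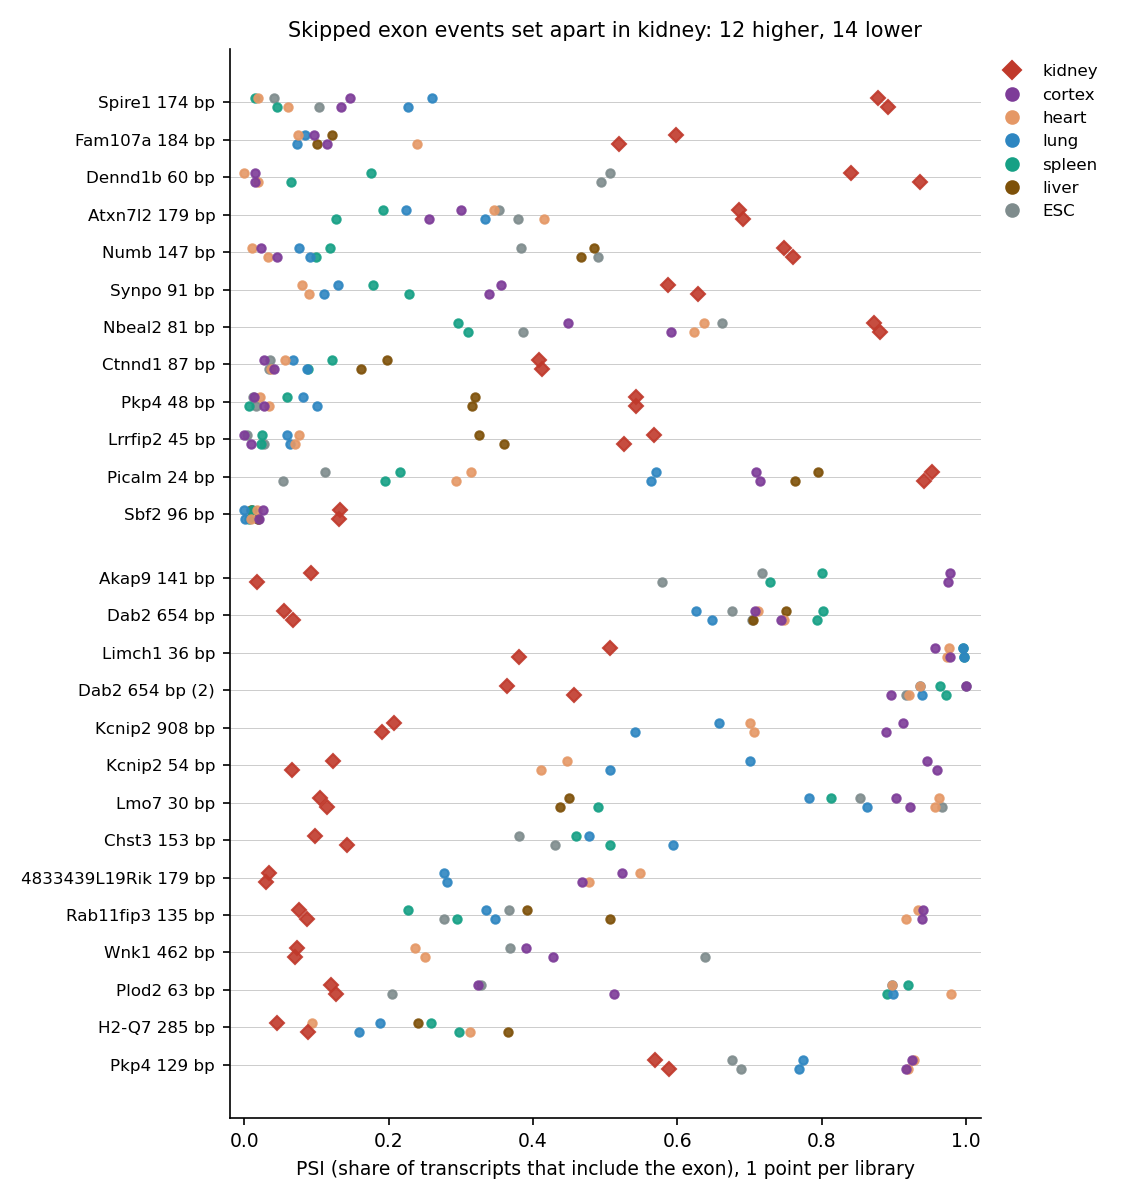
PSI of the 26 events set apart in kidney, 1 point per library, kidney as red diamonds and other tissues as coloured circles where both libraries had 20 or more reads. Kidney lies to the right of all other points in the upper 12 rows and to the left in the lower 14, and liver is the nearest tissue in 6 of them.

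In genes of the fixed lists, few other exons were measured. Of all events tested, 1.31% were higher and 2.39% lower. Of 5 events in podocyte genes, 2 were higher (Synpo above and a 51-bp exon of Wt1, at 0.451 and 0.417 against 0.235 to 0.375) and 1 lower, an 84-bp exon of Ptpro, a receptor phosphatase of podocytes, at 0.0565 and 0.0541 in kidney against 0.898 and 0.938 in cortex, although the heart libraries, at 0.0213 and 0.134, lay on either side of kidney. Slc4a4 gave the only event of the proximal tubule list, a 97-bp exon at 0.998 in both kidney libraries, 0.285 and 0.299 in cortex, 0.8 and 0.744 in heart and 0.939 and 1 in lung, which did not differ from kidney by 0.1. In 21 events of the distal tubule list 3 were lower, all in Wnk1. Of 42 events in 13 known targets of epithelial splicing regulators, 6 were higher (14.3%, with 1.31% of all events), 8 lower (19%, with 2.39% of all events) and 1, in Ctnnd1, set apart. Slk, a kinase of the cytoskeleton, included a 93-bp exon at 0.616 and 0.591 in kidney, 0.806 and 0.805 in liver and at most 0.221 elsewhere, and in Itga6, a laminin receptor, a 130-bp exon was at 0.119 and 0.137 against 0.0402 to 0.838. Ctnnd1 held 6 of the 14 called events, and many of them share exons or junctions. None of 40 events in splicing regulators was called in the quasi-binomial model, where 8 had an unadjusted and 3 an adjusted p under 0.05 with a PSI difference under 0.1.

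The C57BL/6J and the SPRET/EiJ copy of each gene share a nucleus in these hybrids, and reads that span a sequence variant were counted for each copy. All 26 events were listed there, and 14 had 20 or more reads on both copies in kidney and in at least 3 other tissues. In all 14 the difference between kidney and the mean of the others had the same sign on both copies, and in 13 both kidney libraries lay beyond every other library on both. The reads of the copies are part of those by which these events were chosen. The shared sign is thus a description and not an independent check. The exception was Plod2, where the C57BL/6J copy was at 0.134 and 0.0725 in kidney and 0.101 in the lowest other library. The paper dropped events whose PSI from assigned reads departed from that of all reads, and no such filter was applied here. Numb was at 0.748 and 0.761 in kidney over all reads. On the C57BL/6J copy it was at 0.882 and 0.865, and on the SPRET/EiJ copy at 0.936 and 0.937. Its highest other library was at 0.490 over all reads and at 0.806 and 0.860 on the copies. The 654-bp exon of Dab2 was at 0.0427 and 0.0622 on the C57BL/6J copy and 0.0328 and 0.0384 on the SPRET/EiJ copy, with no other library under 0.625 and 0.527. Spire1 was at 0.741 and 0.855, and at 0.796 and 0.857.

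Some of the 26 differed between the copies in kidney by more than the libraries did. The 87-bp exon of Ctnnd1 was at 0.232 and 0.25 on the C57BL/6J copy and at 0.657 and 0.749 on the SPRET/EiJ copy. Sbf2 showed 0.118 and 0.128 on C57BL/6J and 0.00971 and 0.0294 on SPRET/EiJ, with differences from the mean of the others of 0.100 and 0.0187. In Chst3 the C57BL/6J copy was at 0.813 and 0.684 in kidney and at 0.524 to 0.756 elsewhere, and the SPRET/EiJ copy at 0.00518 and 0.00441, with at most 0.0240 elsewhere. On neither copy did kidney lie below all other libraries, although it was set apart as lower over all reads. No test of the difference between copies was made, and reads assigned to a copy come only from junctions near variants.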

How the data were processed

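RNA-seq libraries of 7 tissues were used, 2 per tissue, 14 of 18 in the series, grouped by tissue label. The authors aligned reads with HISAT2 2.0.1 to the C57BL/6J (mm10) and a SPRET/EiJ genome, counted fragments per gene by strand with featureCounts, splitting those over overlapping genes, and deposited TPM. The authors counted junction reads with rMATS on Ensembl release 74, and deposited inclusion and skipping counts, both replicates of a tissue in 1 list, with effective form lengths, a score set by rMATS. Replicates were taken from list positions. The deposited columns of the authors' own comparisons (p-values, FDR, inclusion differences) were not used, nor were 4 TPM columns of fibroblasts.

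PSI was computed from counts and lengths, for autosomes. Genes with at least 1 TPM in 2 libraries were fitted with limma 3.58.1 (R 4.3.3, trend) on log2(TPM + 1). Events were fitted with a quasi-binomial model, dispersions of at least 1 moderated by squeezeVar of limma with a depth trend, a Wald F test against the mean of the others and a likelihood ratio F test against each tissue, with 0.5 reads added for the first. P-values are two-sided and adjusted by Benjamini-Hochberg over all features. Scripts were tested on simulated data. Python 3.11.15 and pandas 2.3.3 were used.

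Named genes were, among those set apart, the 20 with a higher level and at least 10 TPM and up to 8 with a lower level and at least 10 TPM in the nearest tissue, by distance to that tissue, and genes of the lists. Named exons were up to 12 per direction, 1 per gene, by distance to the nearest tissue, and those set apart in list genes or in genes set apart. The comparison, the gene lists and this rule were chosen with earlier results of these data known. Of the lists, Epb41l5, Hbb-b1 and Hbb-b2 had no match, and Cpa1, Ctrb1, Cyp11b1 and Prss2 were under the filter. Alternatives are given in the closing section. Gene starts and sequences were not used here. Which allele a list stands for was checked with imprinted genes: 95.7% of junction reads of Meg3 (maternal) and 4.1% of Snrpn (paternal), but 37.6% of the fewer reads of Peg3 (paternal), were in the list taken as C57BL/6J. Some genes of the lists are not reported here by name.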

Additional observations from a re-analysis of the deposited data

How the results depend on the processing

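Counts stayed within 1.5 times of those reported for genes higher in kidney under all settings, and elsewhere unless named here. A count does not say which genes: with median ratio scaling 624 genes were set apart higher and 5 lower, of which 566 and 2 were shared. With a pseudocount of 0.1 TPM, 4076 genes were lower and 19 set apart lower. With limma on log2 ratios of inclusion and skipping reads, 171 exons were higher, and 7 and 8 set apart higher and lower. With the replicate block in the same fit these were 153, 3 and 7, of which 2 and 7 of the set apart exons were shared with those reported. With at least 50 reads, 24 exons were set apart lower. With all 6 other tissues required, 322 exons were lower and 6 and 3 set apart, of 7913 tested. The organs came from 2 animals, but no source used here says that equal replicate numbers mark 1 animal, so the block was kept as an alternative. Replicate differences correlated by -0.05 to 0.25 in TPM and -0.08 to 0.06 in PSI over 21 pairs of tissues, over 0.1 in 4 and 0. Among the 15 pairs of organs, r was positive in 15 for TPM and 12 for PSI. The block left genes at 2789 higher, 2558 lower, 690 and 5 set apart, and 350 exons lower.

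After the data were seen, 2 settings were added. Against cortex and heart alone, whose reads had the same length as kidney's before trimming, 2130 genes were set apart higher and 755 lower, 812 exons were higher, 974 lower, and 399 and 550 set apart, where only 2 tissues had to be passed. Among named or listed genes called in the reported fit, log2 differences then changed sign for Synpo (-0.73), Slc38a3 (-0.17), Cd3g (0.58) and Ttr (-0.15). Without ESC, 22 genes were set apart lower, and 22 and 26 exons set apart higher and lower.

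Leaving out 1 library at a time gave 2754 to 2850 genes higher, 2285 to 2623 lower, 682 to 699 set apart higher and 4 to 8 lower (8 without kidney replicate 2), 173 to 374 exons higher, 330 to 611 lower, 9 to 18 set apart higher and 10 to 19 lower. The log2 difference of Cyp21a1 ran from -0.21 without kidney replicate 2 to 9.20 without replicate 1, and that of Star from -0.30 to 7.36. A lone library was taken to vary like those of the other tissues. For single exons, 1440 values under other settings kept direction and side of the threshold and 60 fell short of it. For single genes, 56 values fell short of it and 46 newly passed it in the same direction. In genes called in the reported fit, 6 values changed sign. The other 4109 gene values include changes of sign in genes that were not called, which were not counted apart. Without kidney replicate 2 the median log2 difference of the adrenal medulla list was -0.76, with 1.13 in the reported fit. The cause of these changes was not tested. Depth limits exons with few kidney reads, such as Akap9 and Dennd1b.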

Other observations

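Gene families were counted by name after their values were seen, and their counts include genes of the lists above, 19 of the Slc, 2 of the Hox and 3 of the claudin genes. Of 358 solute carrier (Slc) genes tested, 151 (42.2%) were higher in kidney than the mean of the other tissues, where 12.7% of all genes were, and 41 lower. A total of 70 (19.6%) were set apart, where 3.15% of all genes were, with 65 under median ratio scaling and 69 without kidney replicate 2. Those 70 ran from 5.03 to 2893 TPM in kidney, and liver was the nearest tissue for 18. Slc6a19, the main carrier of neutral amino acids, was at 365 and 279 TPM, with at most 0.920 TPM elsewhere, and Slc22a2, which takes up organic cations, at 217 and 239 TPM, with at most 0.859 TPM. Of 35 Hox entries, antisense transcripts included, 28 were higher and 22 (62.9%) set apart, and 22 with median ratio scaling. Hoxb8 was at 32.3 and 30.4 TPM with at most 0.878 TPM elsewhere, Hoxd10 at 21.7 and 19.6 TPM with at most 0.534 TPM, and Hoxc6 at 17.0 and 17.6 TPM with at most 0.512 TPM. Of 21 claudins 14 were higher and 2 lower (13 and 1 without kidney replicate 2), among the first Cldn2, a pore for cations of the proximal tubule (351 and 357 TPM, with up to 94.7 TPM in liver). Of 20 Ugt genes 14 were higher, 5 lower and 3 set apart (4 without kidney replicate 2), and 0 of 20 were set apart with median ratio scaling. Cyp genes were mixed, with 29 of 91 (31.9%) higher, where 12.7% of all genes were, and 22 lower, where 11.7% of all genes were. A total of 6 (6.59%) were set apart higher, and 4 with median ratio scaling. Calls in both directions were thus more frequent than over all genes, while the median log2 difference was -0.21, with -0.20 for all genes.

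Several of the largest differences from the mean were shared with liver, so that kidney was not set apart. They were picked after their values were seen. Khk, the fructose kinase, has a pair of 135-bp exons used in turn. One was at 0.989 in both kidney libraries and 0.996 and 0.993 in liver, and at most 0.0247 in lung and spleen. The other was at 0.0388 and 0.0419 in kidney, 0.0452 and 0.0475 in liver, and at least 0.859 in cortex, lung and spleen. A 15-bp exon of Papss2, which makes the sulfate donor PAPS, was at 0.788 and 0.764 in kidney, 0.881 and 0.870 in liver and at most 0.0339 elsewhere. A 39-bp exon of Myo6, the motor that walks to the minus end of actin, was at 0.822 and 0.832, 0.852 and 0.732, and at most 0.166. A 39-bp exon of Cobll1 was at 0.836 and 0.779, 0.907 and 0.927, and at most 0.148.

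No adrenal marker of the lists was set apart, but 7 set apart genes were over 2 times higher in kidney replicate 2, the direction of those markers. Of these, 3 were named after their values were seen. They are examples. With 1 TPM added, Hsd3b1 and Srd5a2 were over 4 times higher in replicate 2 and Akr1c18 was not. Hsd3b1, a steroid dehydrogenase, was at 11.2 and 934 TPM, Akr1c18, which inactivates progesterone, at 256 and 978 TPM, and Srd5a2, which reduces testosterone, at 6.46 and 56.3 TPM.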
